A study of Sus scrofa with 6 samples.

Results

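The NADPH oxidase genes examined here were DUOXA2, DUOX2, DUOX1, NOX4, CYBA, CYBB, NCF1 and NCF4. The measurements came from porcine renal cortex of control kidneys and of other kidneys after ischemic storage. The set was selected on measured values, since it was put together with the differences between ischemia and control kidneys in these same arrays known. The members' differences are therefore given as a description, with no p-value. Probes were first sought by the gene name of the array design, which gave 8 probes for 3 genes (DUOX2 with 4, DUOX1 with 3, NCF1 with 1). The design lists other members under older or provisional names, and 6 further probes were added through gene number (DUOXA2, 2 probes), RefSeq accession (CYBA, 1 probe), a synonym (CYBB, 2 probes under GP91-PHOX) and description (NCF4, 1 probe). This gave 14 of the 43603 probes on the array and 7 of the 8 genes. No probe was named for NOX4, which is not analysed here.

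Cortex was sampled from 6 kidneys of Large White pigs whose age was 3 months, from different pigs within each group, with 1 one-colour Agilent array per kidney. Control kidneys (n = 3) were removed and then sampled and frozen at once. Ischemia kidneys (n = 3) were clamped, removed, held clamped for 60 min at 37 °C, rinsed through with cold University of Wisconsin solution, which is used to preserve organs, stored for 24 h at 4 °C, then sampled and frozen. Warm ischemia, flush and cold storage came as 1 sequence and cannot be told apart, and no step of reperfusion is described in the labels. The arrays sat in pairs on 3 slides: control 1 with ischemia 2, control 2 with ischemia 3, and control 3 with ischemia 1. Within a slide the control was always at position 4 and the ischemia array at position 3, and these 2 factors cannot be told apart. Between 52.6% and 61.4% of spots per array were well above background by the scanner software's own mark, and no spot was saturated. All 12 proximal tubule markers had a tested probe. With 6 arrays, precision is limited throughout.

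NADPH oxidases move electrons from NADPH across a membrane onto oxygen and so make superoxide or hydrogen peroxide. DUOX1 and DUOX2 are dual oxidases that release hydrogen peroxide, and each leaves the endoplasmic reticulum only with its partner, DUOXA1 or DUOXA2. CYBB (gp91phox) is the catalytic subunit of the phagocyte oxidase, held in the membrane with CYBA (p22phox), which also stabilises NOX4, the oxidase best known from the renal tubule. The phagocyte enzyme starts only when cytosolic proteins, among them NCF1 (p47phox), NCF4 (p40phox) and a Rac GTPase, join it at the membrane.

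DUOX1 and DUOX2 are close copies, and the array's 60-base probes show how far each reads its own gene. The pair below was chosen because the probes lie over the same stretch of both transcripts. Capitals mark the longest run they share, 43 bases.
DUOX1 A_72_P539698: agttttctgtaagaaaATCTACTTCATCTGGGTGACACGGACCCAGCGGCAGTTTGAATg
DUOX2 A_72_P773667: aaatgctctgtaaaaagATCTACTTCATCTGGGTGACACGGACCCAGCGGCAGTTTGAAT
Aligned on that run, 54 of 59 bases were identical (91.5%). The differences are G2A, T4G, T5C, G13A and A16G, counted from 1 at the 5′ end of the DUOX1 probe, with the DUOX1 base first. On all 6 arrays both were not well above background, so this stretch shows only that neither signal passed that mark.

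Another pair covers the last codons of both transcripts, and is shown because its DUOX1 probe carries the DUOX1 result. For DUOX1 the first 51 bases are printed, up to and including the stop codon, and capitals again mark the longest shared run, here 12 bases.
DUOX1 A_72_P302634: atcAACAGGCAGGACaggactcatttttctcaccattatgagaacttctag
DUOX2 A_72_P444501: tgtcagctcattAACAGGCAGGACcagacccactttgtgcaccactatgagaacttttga
Over the 51 bases, 39 were identical (76.5%). The DUOX1 probe was well above background on 4 arrays and the DUOX2 probe on none, so the DUOX1 signal below came from the probe that is less alike its DUOX2 counterpart.

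In the text that follows, a level is log2 of the processed signal minus the array's 75th percentile, so 0 is that percentile and levels of different probes are not set against each other. A difference is the ischemia mean minus the control mean of these levels, with its SE from limma. Testing required a signal well above background on 3 or more of the 6 arrays and a value on 5 or more, which held for 25013 of all probes and for 9 of the 14 member probes. Of the remaining 5, 4 were well above background on no array.

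Across all 25013 probes, 1 passed limma at an adjusted p under 0.05 (0.004%), with a lower level after ischemia, and it was no member. Without adjustment, 747 probes were higher and 829 lower at a p under 0.05. In 1256 probes (5.02%) all ischemia arrays lay below all controls, and in 1474 (5.89%) all lay above, 2730 (10.9%) together. Among the 9 member probes tested, 2 lay wholly below, both of DUOXA2, and 1 lay wholly above, of CYBB. The members were chosen with these values known, so nothing is read from that count. By gene, taking the probe with the highest mean level, 5 of 7 were lower and 2 higher, with a median difference of -0.57 against 0.02 over all 4080 genes with a symbol. None of the 7 passed. For the same reason as the count, nothing is read from the members' median.

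**Figure D1:**
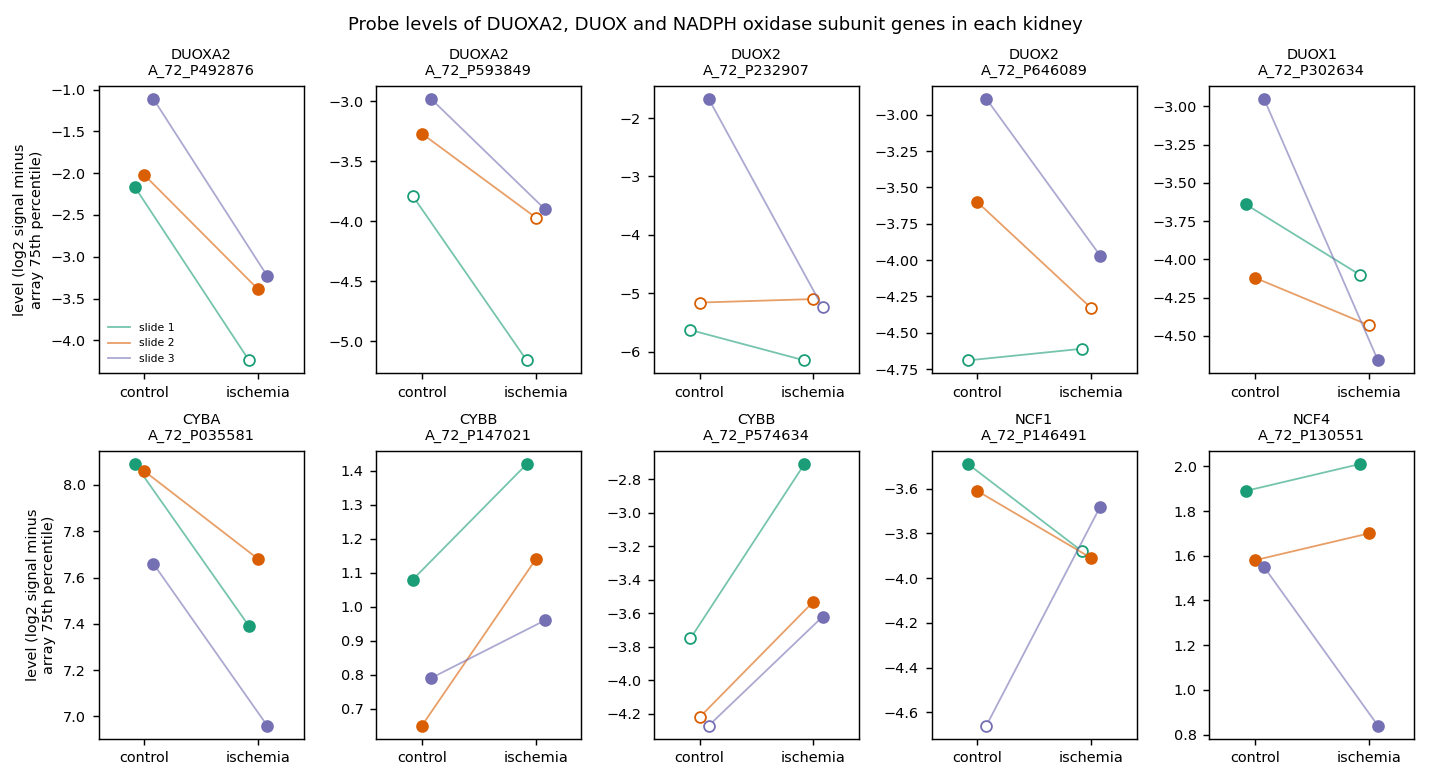
Level of each member probe with a signal well above background on 1 or more arrays (y axis, log2 signal minus the array's 75th percentile) in the control and ischemia kidneys. Each point is 1 kidney, lines join the 2 arrays of a slide, filled points were well above background and open points were not. Both DUOXA2 probes were lower after ischemia on every slide, and control 3 was the highest array in all 5 DUOX and DUOXA2 panels.

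DUOXA2, the maturation factor of DUOX2, had the largest difference among the members. Its brighter probe, A_72_P492876, had levels of -2.17, -2.02 and -1.11 in controls 1 to 3 and -3.23, -4.24 and -3.39 in ischemia kidneys 1 to 3. All 3 ischemia values lay below all 3 controls, and ischemia 2, the lowest, was the array on which the probe was not well above background. The means were -1.76 ± 0.57 (SD, n = 3) and -3.62 ± 0.55 (SD, n = 3). The difference was -1.86 ± 0.38 (SE, n = 3 per group), or 3.62-fold lower after ischemia. Of all probes tested, 60 (0.24%) had a lower difference. DUOXA2 was chosen with its difference known, so nothing is read from that rank.

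On each slide the ischemia array was the lower one, with a difference of -2.07 on slide 1, -1.37 on slide 2 and -2.12 on slide 3. These signals were dim. In processed units the controls read 56.8, 66.1 and 124, and the ischemia arrays 44.6, 12.97 and 27.9. In these units ischemia 1 lay nearer to the controls than in scaled levels, since that array was brighter throughout, with a 75th percentile of 417 against 246 to 293 on the other 5 arrays.

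The other DUOXA2 probe, A_72_P593849, was dimmer and moved the same way. Its levels were -3.79, -3.27 and -2.98 in the controls and -3.90, -5.16 and -3.97 after ischemia. The groups did not overlap, but control 1 and ischemia 1 were only just apart. The probe was well above background in controls 2 and 3 and in ischemia 1. The difference was -0.99 ± 0.39 (SE), and within slides it was -1.37, -0.70 and -0.92. The 2 probes followed each other over the 6 arrays (Pearson r = 0.93, Spearman rho = 1.0), as a description of probes read on the same arrays.

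The size of the DUOXA2 difference varied with the processing, while its sign did not. After normexp background correction with an offset of 50, the difference was -0.82 ± 0.19 (SE). In the authors' deposited table it was -0.51 ± 0.17 (SE by limma on their values). In that table the DUOXA2 values were 6.17, 6.32 and 6.55 in the controls and 5.95, 5.61 and 5.95 after ischemia, so the groups did not overlap there either. The table holds 1 row per target transcript. For transcripts with several probes its values lay closer to the mean over those probes (median absolute difference 0.103) than to the listed probe itself (0.415), so its DUOXA2 value covers both probes. DUOXA2 was lower after ischemia in all 17 alternatives computed, from -2.06 to -0.51.

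**Figure D2:**
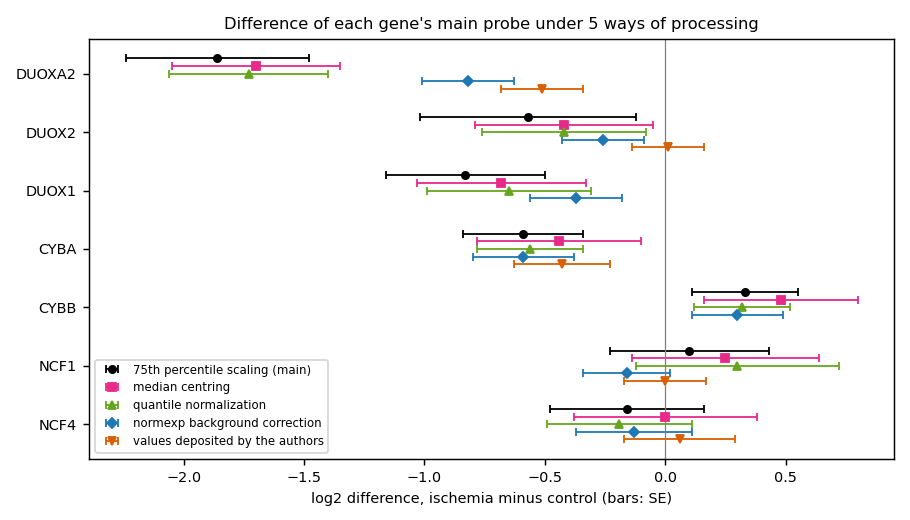
Difference between ischemia and control (x axis, log2, with SE bars) of each gene's main probe under 5 ways of processing, marked by colour and symbol. The orange points of DUOXA2 and DUOX2, from the deposited table, stand for transcripts with 2 and 4 probes. DUOXA2 lies below 0 in each, between -1.86 and -0.51, whereas NCF1 and NCF4 lie on both sides of 0; DUOX1 and CYBB have no orange point because their main probes are not the ones listed in the deposited table.

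DUOX2, the oxidase that DUOXA2 serves, was near the limit of detection. Its brightest tested probe, A_72_P646089, had levels of -4.69, -3.60 and -2.89 in the controls and -3.97, -4.61 and -4.33 after ischemia. The groups overlapped, since control 1 was the lowest of all 6. The probe was well above background in controls 2 and 3 and in ischemia 1. The difference was -0.57 ± 0.45 (SE). Within slides it was 0.09, -0.73 and -1.08, so slide 1 showed none of the shift. It was -0.16 without control 3 and -1.05 without control 1. In the authors' deposited table it was 0.01, but that row stands for a transcript with 4 probes and is not a value of this probe alone.

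A further DUOX2 probe, A_72_P232907, was well above background in control 3 alone. There its level was -1.67, with a processed signal of 83.6, while the other 5 arrays had levels of -6.15 to -5.10. One kidney thus set the control mean of this probe, and it was not tested. The remaining DUOX2 probes, A_72_P444501 and A_72_P773667, were on no array well above background, at levels of -6.50 to -5.62.

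DUOX1 rested on the probe over its last codons, A_72_P302634. Its levels were -3.64, -4.12 and -2.95 in the controls and -4.66, -4.10 and -4.43 after ischemia. The groups met at control 2 and ischemia 2, which differed by 0.02. The probe was well above background in all controls and in ischemia 1 alone, the array where its level was lowest. The controls alone met the filter for testing, which favours a higher control value, so passing it is no support for the direction. The difference was -0.83 ± 0.33 (SE), with within-slide values of -0.47, -0.30 and -1.71. Control 3 and ischemia 1 share slide 3, and without control 3 the difference was -0.52. After normexp correction with quantile normalization it was -0.19.

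The probes A_72_P539698 and A_72_P107996, both named DUOX1 in the array design, stayed under the background mark on every array. The latter is shown because its target list in the scanner files also names the DUOXA2 transcript. It is counted under DUOX1 by its design name alone, and which gene it reads was not tested.
DUOX1 A_72_P107996: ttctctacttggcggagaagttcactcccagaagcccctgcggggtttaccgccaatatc
Its levels were -6.14, -4.21 and -4.64 in the controls and -4.84, -6.08 and -6.31 after ischemia, with no order between the groups. This is the probe listed for DUOX1 in the authors' deposited table, where the difference between group means was -0.09.

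Control 3 had the highest level of all 6 arrays in each of the 5 DUOX1, DUOX2 and DUOXA2 probes that were well above background somewhere. Over all tested probes, control 3 was the highest array in 22.1%. Without control 3 the DUOXA2 difference was -1.53, and it was -1.54 without ischemia 2, the array with the lowest level.

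CYBA, the membrane subunit shared by the phagocyte oxidase and NOX4, was far above background on every array. The levels of its probe A_72_P035581 were 8.09, 8.06 and 7.66 in the controls and 6.96, 7.39 and 7.68 after ischemia. The groups overlapped by 0.02, where ischemia 3 just passed control 3. The difference was -0.59 ± 0.25 (SE), or 1.51-fold lower, and it was negative on each slide (-0.70, -0.38 and -0.69). CYBA was lower in all 17 alternatives, between -0.76 and -0.40. In the authors' deposited table the difference was -0.43.

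A probe under the same design name, A_72_P306223, was the exact reverse complement of the CYBA probe and so reads the opposite strand. It was not counted as CYBA. It was well above background on all 6 arrays, with levels of -0.99, -0.93 and -1.17 in the controls and -1.35, -1.29 and -1.15 after ischemia.

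CYBB, the catalytic subunit, was higher after ischemia by its brighter probe, with overlap between the groups. This probe, A_72_P147021, had levels of 1.08, 0.65 and 0.79 in the controls and 0.96, 1.42 and 1.14 after ischemia. Control 1 lay above ischemia 1, so the groups overlapped. The difference was 0.33 ± 0.22 (SE), and it was positive on each slide, at 0.34, 0.49 and 0.17.

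The dimmer CYBB probe lies nearer the 5′ end of the transcript and is printed because it was detected only after ischemia.
CYBB A_72_P574634: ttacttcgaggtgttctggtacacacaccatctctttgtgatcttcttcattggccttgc
Its levels were -3.75, -4.22 and -4.27 in the controls, not well above background on any, and -3.62, -2.71 and -3.53 after ischemia, well above on all. The groups did not overlap, though control 1 and ischemia 1 were close. The probe was tested only through the 3 ischemia arrays, a filter that favours a higher ischemia value, so it is no separate support for the direction. The difference was 0.79 ± 0.30 (SE). The plain estimate was 1.73-fold higher after ischemia. It was 1.71-fold with each control raised to its array's lowest signal well above background where it lay under that. Only control 2 did, so 1.71 is close to the plain estimate and is no lower limit, since the spread is left out. The mean of both probes differed by 0.56, and the authors' deposited table gave 0.47 for the transcript, with no overlap between groups. CYBB was higher in all 17 alternatives, from 0.21 to 0.56.

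NCF1, the organiser subunit, had a single dim probe, printed here because it carries the whole of the NCF1 result.
NCF1 A_72_P146491: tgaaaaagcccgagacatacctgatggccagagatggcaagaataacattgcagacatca
Its levels were -3.49, -3.61 and -4.66 in the controls and -3.68, -3.88 and -3.91 after ischemia. Control 3 was the lowest of the 6, and the 3 ischemia values lay between it and the other controls. The difference was 0.10 ± 0.33 (SE), and it was -0.28 without control 3.

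NCF4, which binds membrane phosphoinositide, was well above background on all arrays. The levels of probe A_72_P130551 were 1.89, 1.58 and 1.55 in the controls and 0.84, 2.01 and 1.70 after ischemia. Ischemia 1 was the lowest array and ischemia 2 the highest, so the ischemia group spanned the controls. The difference was -0.16 ± 0.32 (SE), and 0.18 without ischemia 1. For neither cytosolic subunit did the sign hold under all alternatives.

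The subunits of the phagocyte enzyme thus did not share 1 direction. CYBB was higher, CYBA lower, and NCF1 and NCF4 lay on both sides of 0 depending on the setting. Over the 6 arrays CYBA and the brighter CYBB probe had a Pearson r of -0.32 (Spearman rho -0.20), and CYBB and NCF4 had 0.47 (rho 0.71). The DUOXA2 and CYBB probes ran opposite to each other, at -0.81 for the brighter pair (rho -0.89). These are descriptions over 6 arrays that share slides and the same group difference, with no test.

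Markers of phagocytes, the cells in which CYBB, NCF1 and NCF4 are best known, were mostly higher after ischemia, as CYBB was, but not all of them. Of 21 markers listed, 15 had a probe and 12 were tested, of which 10 were higher and 2 lower after ischemia, with a median difference of 0.41. Their summed scaled signal ranged from 17.6 to 21 in the controls and from 23.9 to 40.7 after ischemia. That sum includes the calgranulin gene S100A12, at levels of 2.30 and 2.96 in ischemia 1 and 2 but -5.18 in ischemia 3. Its upper end therefore partly reflects that gene. In 4 of the 12, all ischemia arrays lay above all controls (5.89% of all probes did), and none passed limma after adjustment.

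Among the 3 brightest, AIF1 differed by 0.33 ± 0.26 (SE), and the complement genes C1QA and C1QC by 0.59 ± 0.22 and 0.63 ± 0.21. The macrophage receptors CD163 and VSIG4 differed by 1.42 ± 0.32 and 1.14 ± 0.21 by their brightest probes and did not overlap between groups. A dimmer CD163 probe (0.79 ± 0.36) and a dimmer VSIG4 probe (0.53 ± 0.29) were also higher but overlapped. The remaining probes of both genes were higher without overlap. The 2 tested markers that lay lower by their brightest probe were CD14, a monocyte receptor, at -0.42 ± 0.26, and the leukocyte gene PTPRC at -0.13 ± 0.29, both with overlap. That CD14 probe was lower on each slide. A dimmer CD14 probe, well above background on 3 arrays, was higher on each slide, at 0.34 ± 0.43 with overlap, so the CD14 probes did not share 1 direction. CD163, VSIG4, CD14, PTPRC and the genes that follow were named after their values were seen. The calgranulin S100A12 had levels of -4.55, -5.95 and -3.65 in the controls and 2.30, 2.96 and -5.18 after ischemia, so ischemia 1 and 2 were high and ischemia 3 was not. S100A8 was not well above background in any control and was so in ischemia 1 and 2. S100A9, the partner of S100A8, was well above background only in control 3 and ischemia 1, with its highest level, -1.95, in control 3, and means of -4.36 in the controls and -4.58 after ischemia. SPI1, a myeloid transcription factor, did not reach the background mark on any of the 6. The part of phagocyte RNA in the CYBB difference was not tested, and in bulk cortex more cells of a type and more RNA per cell cannot be told apart.

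**Figure D3:**
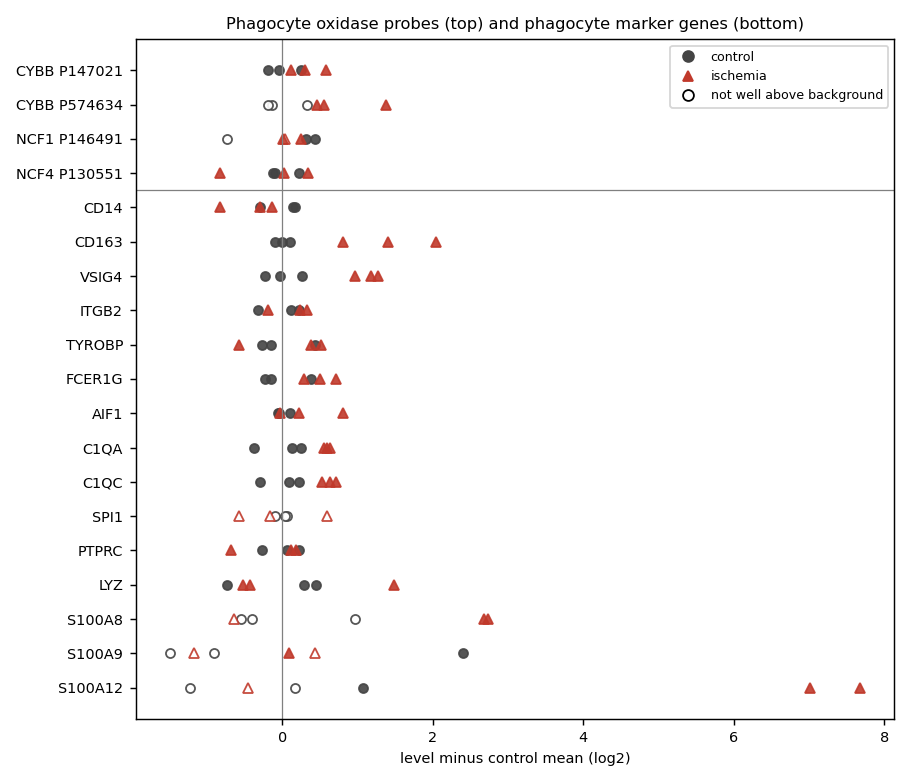
Level of each array minus the control mean (x axis, log2) for the CYBB, NCF1 and NCF4 probes above the line and phagocyte marker genes below it. Circles are control kidneys, triangles ischemia kidneys, and open symbols were not well above background. CD163, VSIG4, C1QA and C1QC show all ischemia kidneys above all controls, while S100A12 was high in 2 ischemia kidneys only.

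Markers of the other cell types that cortex can hold were counted in the same way, and none passed. Proximal tubule markers were lower in 10 and higher in 2 of 12, with a median of -0.61. Their summed scaled signal was 1010.4 to 1265.2 in the controls and 830 to 937 after ischemia. Among its brightest, GATM differed by -0.75 ± 0.30 (SE) and SLC34A1 by -0.64 ± 0.27. That list lay lower together with CYBA and DUOXA2, and its part in their differences was not tested. Urothelium, which lines the renal pelvis, had 4 tested markers, all lower by their brightest tested probe, with a median of -0.33. Another UPK3A probe was higher, at 0.15 ± 0.48, and UPK1A and UPK2 were well above background on only 3 arrays. The sums were 1.22 to 3.86 in the controls and 1.04 to 2.05 after ischemia.

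Lymphocyte markers (8 tested) were higher in 5 and lower in 3, with a median of 0.08. Their summed signal was 4.18 to 4.3 in the controls and 2.1 to 3.07 after ischemia. Such a sum follows its brightest gene most, here the T cell receptor chain CD247, at -1.33 ± 0.23 (SE) with no overlap. The sum thus does not show the direction of most markers in the list. Stroma and vascular smooth muscle (8 tested) had a median of -0.01 and sums of 118 to 133 and 140 to 168, while the collagen gene COL1A2, named after its value was seen, lay at -1.64 ± 0.30 with no overlap. Sums of the loop and distal nephron (6 tested, median -0.11) were 40.9 to 57.7 and 35.6 to 67.5, and those of endothelium (9 tested, median 0.11) were 33.7 to 38.8 and 31.5 to 45.6. Podocytes had 2 tested markers with a median of 0.38, and NPHS1 and SYNPO had no named probe. Skeletal muscle had 4 tested with 0.17.

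Genes that work with the members were read from lists set by function. Of 24 other oxidase and regulator genes, 10 had a probe and 8 were tested. In these 8, 4 were higher and 4 lower, with a median of 0.00, and none passed limma at an adjusted p under 0.05 (0.004% of all probes did). RAP1A, a small GTPase found with the phagocyte cytochrome, differed by 0.31 ± 0.18, with all ischemia kidneys above all controls, while 1 of its 7 probes gave -0.24 ± 0.21. PRKCB, a kinase that phosphorylates NCF1, differed by -0.43 ± 0.29, the proton channel HVCN1 by -0.30 ± 0.34 and RAP1B by 0.16 ± 0.21. DUOXA1, the partner of DUOX1, and NOX1 were not tested because their probes were too dim. RAC1 and RAC2 had no named probe and are not analysed here.

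Of 17 genes that use or remove superoxide and hydrogen peroxide, 13 were tested. In these 13, 3 were higher and 10 lower, with a median of -0.15, and none passed. GPX3, the glutathione peroxidase that the proximal tubule secretes into plasma, differed by -0.23 ± 0.20, the mitochondrial peroxiredoxin PRDX3 by -0.21 ± 0.21, extracellular SOD3 by -0.37 ± 0.38 and catalase, CAT, by -0.27 ± 0.30. Each of these differences was about as large as its SE.

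**Figure D4:**
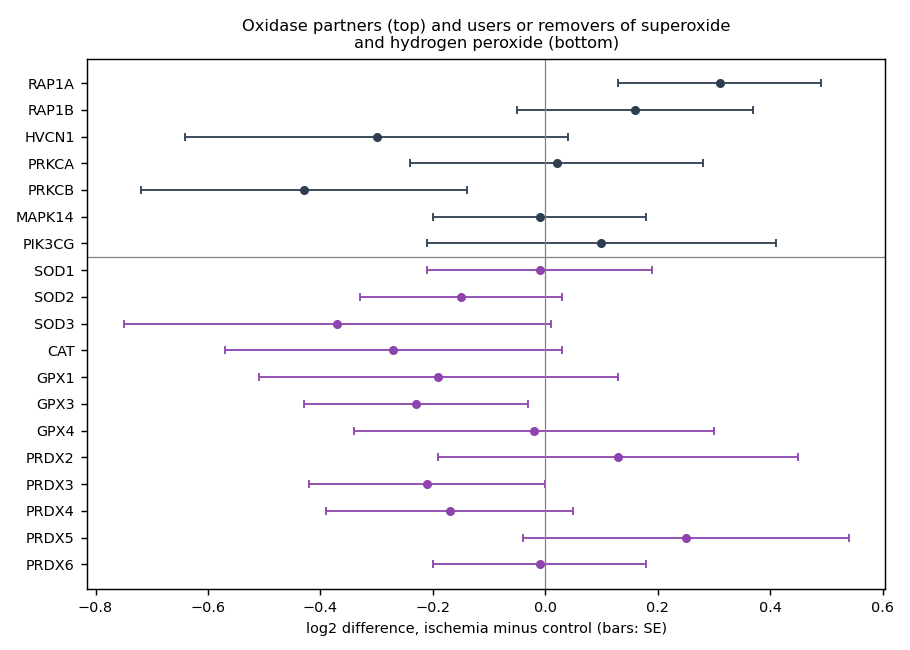
Difference between ischemia and control (x axis, log2, with SE bars, n = 3 per group) of tested oxidase partner and regulator genes above the line and of genes that use or remove superoxide and hydrogen peroxide below it, each by its brightest tested probe. Most lie within about 1 SE of 0. RAP1A, at 0.31, and PRKCB, at -0.43, are among those that lie farther out.

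The genes most like DUOXA2 over the 6 arrays, among 4078 compared, were PANK1 (Pearson r = 0.969), TNFRSF11A (0.957), NRP1 (0.955), SEPHS2 (0.955) and PTN (0.954). All 5 lay lower in every ischemia kidney than in any control (5.02% of all probes did), by -1.02, -0.14, -1.42, -0.63 and -0.48. They were picked for following DUOXA2, which split between the groups in that way itself, so nothing is read from this. Those most like CYBB were FCER1G (0.973), TIMP2 (0.971), NHP2 (0.965), SPSB2 (0.965) and ICAM1 (0.962), with differences of 0.49, 0.44, 0.48, 0.36 and 0.29. FCER1G, the Fc receptor gamma chain of myeloid cells, was also in the phagocyte list. With 6 arrays and this many genes such values describe the arrays and carry no test.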

How the data were processed

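Renal cortex RNA carried Cy3, added with Agilent's Low Input Quick Amp kit per the labels' protocols. Spot intensity in the deposited scanner files had been background-subtracted, array by array, by Agilent Feature Extraction 10.10.1.1 per the file headers (the submitters' processing notes name 11.5.1.1, R 2.15.2 and limma). The authors' deposited table holds log2 values with column medians of 5.91 to 5.99. How arrays were normalized to each other for it is not stated in the sources used here.

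Levels were log2 processed signal minus each array's 75th percentile, without control and outlier spots, averaged over spots of a probe. The 2 groups were fitted in R 4.3.3 with limma 3.58.1 (eBayes, two-sided), and p-values were adjusted by Benjamini-Hochberg over 25013 probes. The script was tested on simulated data. A gene's main probe was the one with the highest mean level. Where a probe was dim in a whole group, a second fold was computed, with the spread left out. In it the bright group's mean is set against the dim arrays. Each dim array is taken at its lowest signal well above background, or at the probe's own signal if that was higher. A symbol was given to 11925 of 43603 probes through the files' own columns and RefSeq's Sscrofa11.1 gene table.

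The members and lists were chosen with earlier results of these data known. Text names all member probes, the 5 pathway genes of smallest unadjusted p in each list and those paired with a member, the 5 genes most correlated with DUOXA2 and CYBB, and up to 3 bright markers of a list. Some genes that this rule names are not reported here. Printed probes were chosen after their values were seen, from coding sequence only. The kidneys of a group came from different pigs per the labels, and no array pair was a duplicate (correlations 0.96 to 0.983).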

Additional observations from a re-analysis of the deposited data

How the results depend on the processing

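Over all probes, 1 was called lower and 0 higher by limma. Median centring gave 7 lower and 4 higher. The count lower was 3 with normexp, with normexp and quantile normalization, in the deposited table, with a filter requiring all 6 arrays and with a variance trend, and 0 with quantile normalization, with no filter and with slide as a block. Leaving out 1 array gave 0 to 1 lower and 0 to 1 higher. The arrays of a shared replicate number did not deviate together (correlations -0.348, -0.168 and -0.05), and with that number as a replicate block 0 probes were called. Arrays of a shared slide did (0.342, 0.102 and 0.334). In both pathway lists 0 genes were called under each alternative run, and 1 gene had an unadjusted p under 0.05 in the main comparison. DUOXA2 differed by -0.82 with normexp, -0.71 with normexp and quantile normalization and -0.51 in the deposited table. DUOX1 differed by -0.19 with normexp and quantile normalization, and CYBB by 0.56 as the mean of its probes. With 1 array left out, the ranges were -2.06 to -1.53 for DUOXA2, -1.05 to -0.16 for DUOX2, -1.11 to -0.52 for DUOX1, -0.76 to -0.40 for CYBA, 0.21 to 0.45 for CYBB, -0.28 to 0.31 for NCF1 and -0.40 to 0.18 for NCF4. The median difference of all probes was -0.04, 0.11 with median centring and 0.14 in the deposited table. The causes of these shifts were not tested. Dim signals limit DUOX1, DUOX2, DUOXA2 and NCF1.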
